A study of Mus musculus with 6 samples.

Results

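Brush border peptidases are the membrane enzymes with which the villus enterocyte finishes the digestion of protein. The 9 genes described here, Anpep, Enpep, Xpnpep2, Dpp4, Ace, Mme, Mep1a, Mep1b and Tmprss15, were chosen by name, and all 9 were found among the 24452 gene symbols of the deposited tables. Their transcripts were measured by RNA-seq of polyA RNA from frozen small intestine, with TruSeq libraries. The tissue came from suckling C57BL/6 mice of postnatal day 14. The design had 3 libraries of the genotype labelled Erk1/2 -/- (Erk1/2-KO 1 to 3) and 3 labelled wild type (WT 1 to 3). The labels name no Cre driver, no cell type in which the kinases are lost and no region of the small intestine that was taken. They also do not say that each library came from a separate animal. Xist, the RNA of the inactive X, and the Y-linked Ddx3y differed within each label, so the 3 libraries of a label were not all repeats of 1 animal. Whether the libraries alike in these genes were repeats is not stated, and the p-values measure only the spread between libraries. The series title places the comparison in the question of how these kinases act in the intestine after birth.

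Enterocytes carry these enzymes on the microvilli, with the catalytic part facing the lumen, where they shorten the peptides that gastric and pancreatic proteases leave. Free amino acids and short peptides then enter the cell through transporters of the same membrane. Enteropeptidase, the product of Tmprss15, acts one step earlier: it cuts trypsinogen, and trypsin then activates the other pancreatic zymogens. The set of enzymes differs along the length of the intestine, enteropeptidase being an enzyme of the duodenum.

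The sum of the 9 genes was 74969, 58179 and 47659 normalised counts in labelled Erk1/2-KO 1 to 3, and 54836, 50490 and 70779 in WT 1 to 3. That was between 0.321% and 0.437% of all normalised counts in the labelled Erk1/2-KO libraries and between 0.370% and 0.502% in the WT libraries, so the totals overlapped. A normalised count is the authors' count for a gene divided by a factor for the library. The library totals ranged from 14825845 to 17153570 in the labelled Erk1/2-KO group and from 13641468 to 14094100 in the WT group. Mapk3, which encodes ERK1, was not called lower under the knockout label. It averaged 2792 ± 544 in labelled Erk1/2-KO and 2645 ± 582 in WT libraries (SD, n = 3 each; limma adjusted p = 0.819). These values are totals over the whole gene and hold nothing on single exons, so every direction below follows the genotype labels.

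Markers of intestinal position differed between libraries of the same label. A segment score, the mean log2 level of 5 genes of the proximal intestine minus that of 5 genes of the ileum, was -0.97, 7.02 and 7.30 in labelled Erk1/2-KO 1 to 3, and 6.17, 5.67 and 1.29 in WT 1 to 3. Labelled Erk1/2-KO 1 and WT 3 thus stood apart from the other 4 libraries. Pdx1 is among the proximal genes of the score, and Fgf15 and Fabp6 are among its ileal genes. Pdx1, a transcription factor of duodenum and pancreas, had 14, 718 and 682 normalised counts in labelled Erk1/2-KO 1 to 3 and 453, 343 and 3 in WT 1 to 3. Fgf15, the ileal hormone induced by bile acids, had 390, 0 and 0 in labelled Erk1/2-KO 1 to 3 and 5, 13 and 1975 in WT 1 to 3. Fabp6, which binds bile acids in ileal cells, did not follow this division, with 1947, 3 and 3 in labelled Erk1/2-KO 1 to 3 and 1, 1 and 4 in WT 1 to 3. Enterocyte markers were abundant in every library, Fabp2 for example between 26167 and 71558 in the labelled Erk1/2-KO group and between 21142 and 28477 in WT.

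The promoters of 3 members are shown because their transcripts varied widely over the libraries and in different directions. RefSeq windows (GRCm38.p6) were found for 8 of the 9 genes. Each sequence is the 250 bases before the annotated start, read 5′ to 3′ on the strand of the gene, with matches to the searched motifs in capitals. The motifs were a GATA site (AGATAA or TGATAA or AGATAG or TGATAG), a CDX site (TTTATNG), an HNF1 core (GTTAAT) and an HNF4 site (CAAAGNNCA), on either strand. The Tmprss15 window lies at chr16:79091098-79091347, that of Mep1a at chr17:43502774-43503023 and that of Enpep at chr3:129332750-129332999, all on the minus strand.
Tmprss15: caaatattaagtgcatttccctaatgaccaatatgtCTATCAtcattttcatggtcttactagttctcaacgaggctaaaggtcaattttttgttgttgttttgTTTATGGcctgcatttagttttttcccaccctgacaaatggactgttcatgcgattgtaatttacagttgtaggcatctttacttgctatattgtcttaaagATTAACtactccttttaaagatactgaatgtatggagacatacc
Mep1a: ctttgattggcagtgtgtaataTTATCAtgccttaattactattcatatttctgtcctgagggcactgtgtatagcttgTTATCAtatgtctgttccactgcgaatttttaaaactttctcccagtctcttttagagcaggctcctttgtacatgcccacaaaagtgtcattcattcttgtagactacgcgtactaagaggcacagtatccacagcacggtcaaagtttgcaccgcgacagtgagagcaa
Enpep: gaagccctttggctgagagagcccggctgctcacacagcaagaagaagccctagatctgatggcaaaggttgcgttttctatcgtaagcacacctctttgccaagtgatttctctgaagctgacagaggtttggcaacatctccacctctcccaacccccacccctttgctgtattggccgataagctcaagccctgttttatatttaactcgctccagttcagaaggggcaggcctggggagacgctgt

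In the Tmprss15 window a GATA match began 214 bases, a CDX match 146 bases and an HNF1 core match 44 bases before the start. The Mep1a window held 2 GATA matches, at 228 and 171 bases before the start, and the Enpep window held none of the 4 motifs. None of the matches overlapped another. Among 32817 promoter windows of the same length, 26.6% held the GATA motif, 9.8% the CDX motif, 6.4% the HNF1 core and 5.5% the HNF4 motif. A match is a run of letters and not a shown binding site.

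Ace and Anpep had the highest mean levels of the 9 per length of exon under both labels, though in labelled Erk1/2-KO libraries the values of Ace overlapped those of Mep1b. In labelled Erk1/2-KO libraries the order of mean levels per kb of exon was Anpep, Ace, Mep1b, Enpep, Mep1a, Dpp4, Tmprss15, Mme and Xpnpep2. In WT libraries it was Ace, Anpep, Mep1a, Mep1b, Enpep, Dpp4, Mme, Xpnpep2 and Tmprss15. Anpep had 5030 ± 184 normalised counts per kb in labelled Erk1/2-KO and 4001 ± 568 in WT libraries, and Ace had 3870 ± 1504 and 4839 ± 956 in the same order (SD, n = 3 each). At the low end Xpnpep2 had 106 ± 56.0 per kb in labelled Erk1/2-KO and 48.7 ± 16.1 in WT libraries. Neighbours in the order overlapped between libraries, with 1 gap in each group: Mep1b lay above Enpep in every labelled Erk1/2-KO library, and Anpep lay above every Mep1a value in WT. Within the labelled Erk1/2-KO group the lowest Mep1b value was 1982 and the highest Enpep value 1373 per kb. Within WT the lowest Anpep value was 3550 and the highest Mep1a value 2387 per kb.

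**Figure D1:**
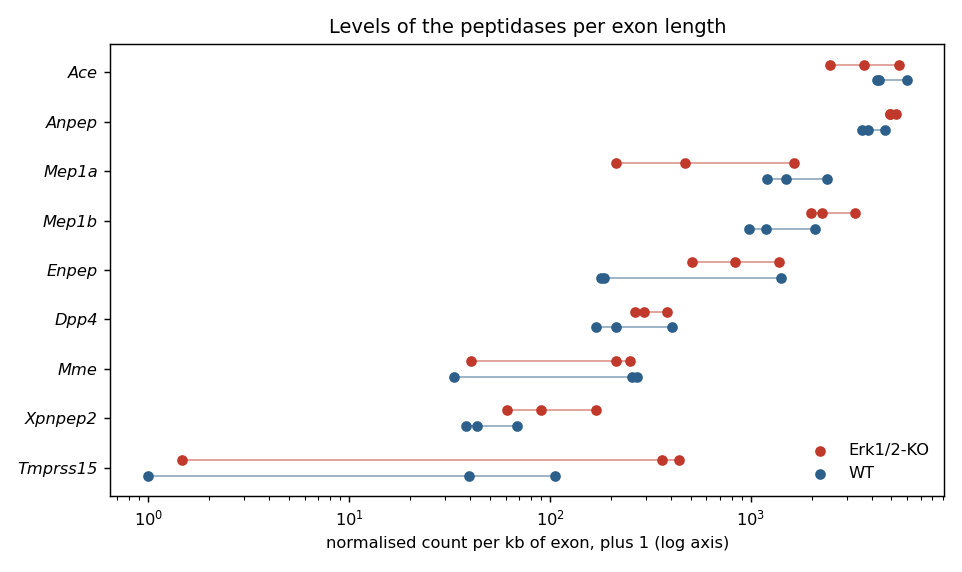
Normalised count per kb of exon plus 1, on a log axis, for each peptidase in the 3 labelled Erk1/2-KO libraries (upper, red) and the 3 WT libraries (lower, blue), with lines joining the lowest and highest library. Ace and Anpep lie at the top, and Tmprss15 spans from 0.478 to 435 per kb within the labelled Erk1/2-KO group.

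None of the 9 genes was called higher or lower between the genotypes when all 6 libraries were fitted (limma adjusted p under 0.05, over 14686 genes tested). Of all genes tested, 4.85% were called higher and 3.94% lower. At an unadjusted limma p under 0.05 there were 2 members, Mep1b and Xpnpep2, beside 30.3% of all genes. The median log2 fold change of the 9 was 0.34, beside -0.01 over all genes tested, and 6 of the 9 were positive, beside 49.1% of all genes. The spread within a label was wide for most members: the coefficient of variation ran from 3.66% for Anpep to 98.1% for Mep1a in labelled Erk1/2-KO libraries, and from 14.2% for Anpep to 120% for Enpep in WT libraries.

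**Figure D2:**
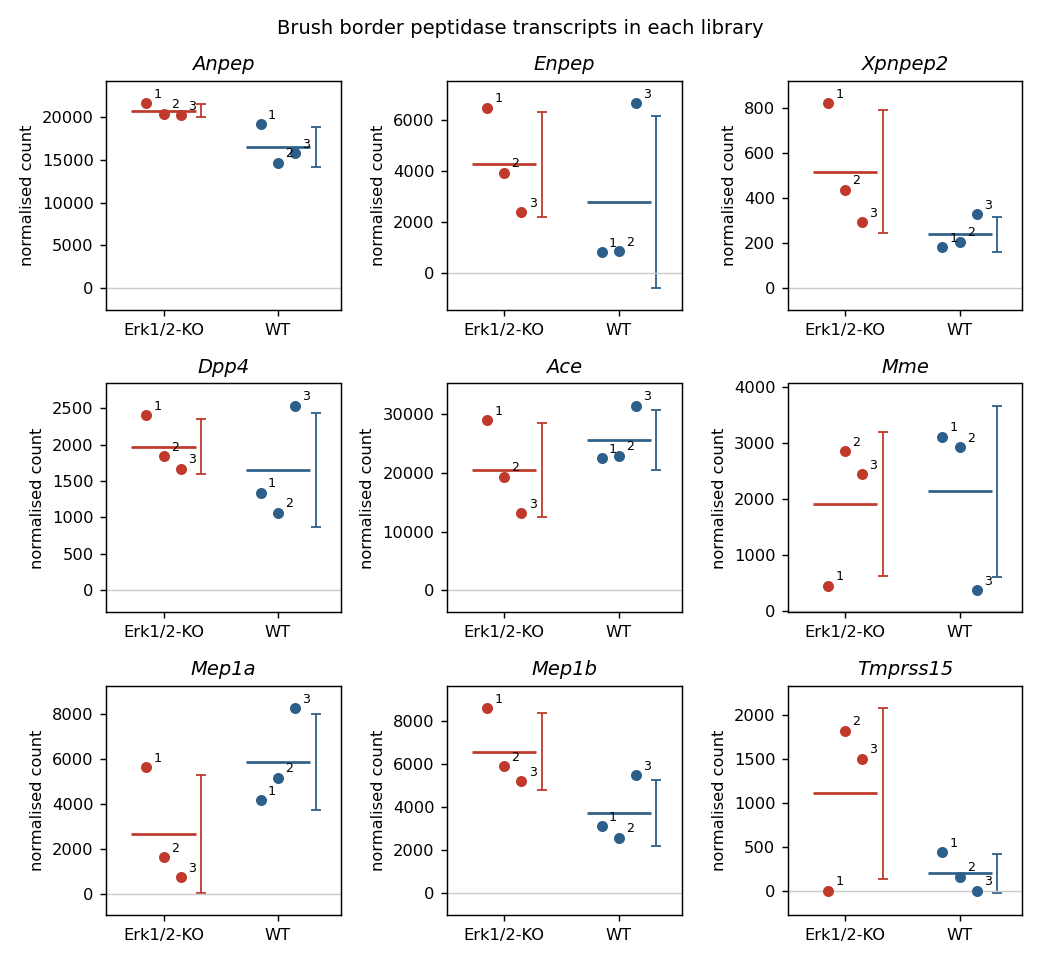
Normalised count of each peptidase in each library, labelled Erk1/2-KO on the left (red) and WT on the right (blue), with replicate numbers beside the points, lines at the means and bars for ± SD (n = 3 each). For Enpep, Mme, Mep1a and Tmprss15 the library labelled Erk1/2-KO 1 or WT 3 lies far from the others of its own label.

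The aminopeptidases take residues from the amino end of peptides. Anpep, encoding aminopeptidase N, which removes mostly neutral residues, had 21677, 20429 and 20297 normalised counts in labelled Erk1/2-KO 1 to 3, and 19184, 14680 and 15773 in WT 1 to 3. On the authors' scaling it was the only member whose labels did not overlap, all labelled Erk1/2-KO values being the higher ones. That arrangement held for 19.8% of all genes tested and the opposite one for 17.8%. The log2 fold change was 0.34 ± 0.17 (SE), with a 95% interval of -0.06 to 0.74 and a limma adjusted p of 0.223. Every labelled Erk1/2-KO library total was above every WT total. With library totals made equal, the log2 fold change of Anpep was 0.16 ± 0.16 (limma adjusted p = 0.509). Enpep, encoding aminopeptidase A, which removes acidic residues, had 6461, 3924 and 2394 in labelled Erk1/2-KO 1 to 3, and 835, 866 and 6638 in WT 1 to 3. WT 3 exceeded every other library, while WT 1 and WT 2 were the lowest, and the log2 fold change of 1.22 ± 0.82 had a limma adjusted p of 0.349. Xpnpep2, encoding the membrane aminopeptidase P, which frees a residue that precedes proline, had 821, 436 and 293 in labelled Erk1/2-KO 1 to 3, and 181, 205 and 327 in WT 1 to 3. Only WT 3 reached into the range of the other label, and the log2 fold change was 1.03 ± 0.40 (limma adjusted p = 0.138). Xpnpep2 lies on the X chromosome, and Xist was high in labelled Erk1/2-KO 2 and 3 and in WT 3 (5924, 4596 and 6551) and at most 19 in the other 3 libraries, a division that Xpnpep2 did not share.

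Proline is also the mark that Dpp4 reads: dipeptidyl peptidase 4 removes dipeptides that end in proline or alanine, among them those of the incretin hormones. Dpp4 had 2399, 1843 and 1670 normalised counts in labelled Erk1/2-KO 1 to 3, and 1341, 1064 and 2534 in WT 1 to 3. Every labelled Erk1/2-KO value lay above WT 1 and WT 2 and below WT 3 (log2 fold change 0.34 ± 0.33, limma adjusted p = 0.510). Ace, encoding the angiotensin-converting enzyme, takes dipeptides from the carboxyl end. It had 28914, 19341 and 13127 in labelled Erk1/2-KO 1 to 3, and 22471, 22870 and 31418 in WT 1 to 3. The log2 fold change of Ace was -0.38 ± 0.31 (limma adjusted p = 0.444), with the labels overlapping. An antisense gene overlaps exons of Dpp4 and another those of Ace in the GENCODE annotation. Without a stated strand setting, reads there could be given to either gene or left uncounted. The antisense gene that overlaps Ace, Gm11651, had at most 4 normalised counts in any library. That does not show whether reads of Ace were left uncounted.

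The endopeptidases cut within the chain. Mme, encoding neprilysin, had 452, 2859 and 2445 normalised counts in labelled Erk1/2-KO 1 to 3, and 3121, 2927 and 370 in WT 1 to 3. Within each label 1 library, labelled Erk1/2-KO 1 and WT 3, was several-fold below the rest, and the log2 fold change was -0.03 ± 1.01 (limma adjusted p = 0.986). Its 95% interval, -2.41 to 2.35, leaves room for differences of several fold in either direction. Mep1a and Mep1b encode the alpha and beta subunits of meprin, a metalloprotease of the astacin family that the intestine and kidney make in quantity. Mep1a had 5622, 1616 and 730 in labelled Erk1/2-KO 1 to 3, and 4153, 5152 and 8240 in WT 1 to 3. Labelled Erk1/2-KO 1 fell within the WT range and the other 2 lay below it, and the log2 difference was -1.58 ± 0.69 (limma adjusted p = 0.178). In the fit without labelled Erk1/2-KO 1, Mep1a was called lower, at -2.37 on the log2 scale (limma adjusted p = 0.0158). That fit called 20.6% of the 14525 genes tested, higher or lower. Leaving out any other single library gave no call for Mep1a. Mep1b had 8621, 5913 and 5202 in labelled Erk1/2-KO 1 to 3, and 3112, 2565 and 5479 in WT 1 to 3. WT 3 lay just above the lowest labelled Erk1/2-KO value, and the log2 fold change was 0.87 ± 0.32 (limma adjusted p = 0.128).

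Tmprss15, the enteropeptidase gene, had the widest range of the 9 on the log2 scale. It had 2, 1818 and 1501 normalised counts in labelled Erk1/2-KO 1 to 3, and 438, 161 and 0 in WT 1 to 3. The gene was near 0 in labelled Erk1/2-KO 1 and listed at 0 in WT 3, and both other labelled Erk1/2-KO libraries lay above both other WT libraries. The log2 fold change of 2.28 ± 3.09 had a 95% interval from -5.02 to 9.58 (limma adjusted p = 0.648). The pancreatic zymogens, which are activated by enteropeptidase in the case of trypsinogen and by trypsin for the others, are transcripts of acinar cells, and 14 of them summed to between 316 and 7877 in labelled Erk1/2-KO libraries and to between 2509 and 51625 in WT libraries. In labelled Erk1/2-KO 1 and WT 3 a single gene of the list made up most of this sum, so the sum does not stand for the whole list there. Prss2, a trypsinogen, had 0, 437 and 0 in labelled Erk1/2-KO 1 to 3, and 2662, 104 and 0 in WT 1 to 3. None of the 11 zymogen genes tested was called.

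More members separated the libraries by segment score than by label. Of the 9, 6 set the 2 low-score libraries apart from the other 4. Anpep alone set the labels apart, on the authors' scaling. Dpp4, Enpep, Ace and Mep1a were each higher in labelled Erk1/2-KO 1 and WT 3, the libraries with low scores, and no value of the other 4 reached theirs. Mme and Tmprss15 were lower in both, again without overlap. Of all genes tested, 10.8% were higher in these 2 libraries than in all the rest and 10.4% were lower, beside 4 and 2 of the 9 members. The mean of the 2 low-score libraries was 0.145 times that of the other 4 for Mme, 3.27 times for Enpep, 2.38 times for Mep1a and 1.00 times for Anpep. Naaladl1, an ileal peptidase of the same membrane, had the widest contrast among the other surface peptidases. It had 16324, 212 and 56 in labelled Erk1/2-KO 1 to 3, and 174, 544 and 20592 in WT 1 to 3. The labels do not give the part of the intestine, and its share in these levels was not tested.

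**Figure D3:**
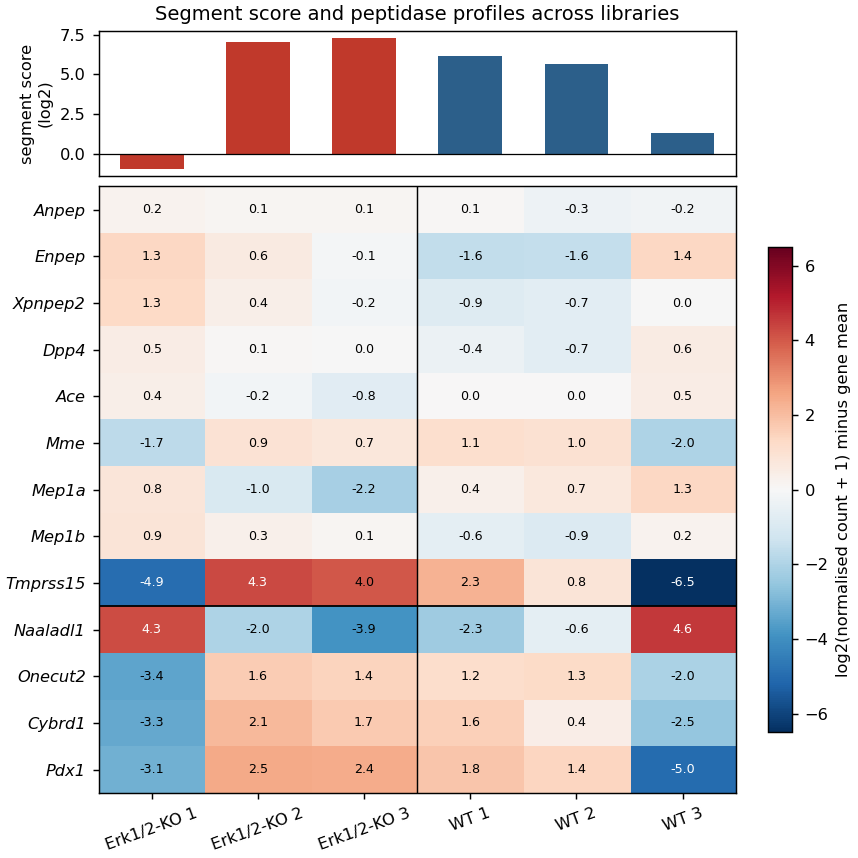
Segment score of each library (bars, log2 scale; red for labelled Erk1/2-KO, blue for WT) above the log2(normalised count + 1) of each gene minus its mean over the 6 libraries, for the 9 peptidases and, under the line, 4 genes that vary with the score. Of these 4 genes, all but Naaladl1 belong to the score itself and so follow it by construction. Tmprss15 is at -4.9 in labelled Erk1/2-KO 1 and -6.5 in WT 3, and Naaladl1 at 4.3 and 4.6 in the same libraries.

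Among the 4 libraries with a high score, the limma fit called most members. Without labelled Erk1/2-KO 1 and WT 3, 6 of the 9 were called by limma, 5 higher and 1 lower, where 14.3% of the 14232 genes tested were called higher and 12.1% lower. Enpep rose, with a log2 difference of 1.85 ± 0.22 (limma adjusted p = 0.00305), with a mean of 3159 normalised counts in labelled Erk1/2-KO 2 and 3 and of 850.5 in WT 1 and 2. Tmprss15 rose by 2.63 ± 0.41 (adjusted p = 0.00672), Mep1b by 0.97 ± 0.14 (adjusted p = 0.00529), Xpnpep2 by 0.89 ± 0.21 (adjusted p = 0.0229) and Dpp4 by 0.55 ± 0.14 (adjusted p = 0.0319). Mep1a fell by 2.09 ± 0.34 on the log2 scale (adjusted p = 0.00748), with means of 1173 in labelled Erk1/2-KO 2 and 3 and of 4652.5 in WT 1 and 2. Ace, Mme and Anpep were not called, at -0.51 ± 0.20, -0.19 ± 0.13 and 0.28 ± 0.17. These are 2 libraries a label, chosen with the scores and earlier results known. In these 4 libraries the label cannot be told apart from the sex of the animals: Xist had 5924 and 4596 and Ddx3y 0 and 0 normalised counts in labelled Erk1/2-KO 2 and 3, while Xist had 19 and 19 and Ddx3y 303 and 428 in WT 1 and 2.

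Between the low-score libraries, 1 of each label and so without a test, only some of these differences recurred. The sex markers ran the other way in this pair, with Xist at 2 and Ddx3y at 177 in labelled Erk1/2-KO 1, against 6551 and 0 in WT 3. Mep1b had 8621 in labelled Erk1/2-KO 1 and 5479 in WT 3, and Xpnpep2 had 821 and 327 in the same order, ratios of 1.57 and 2.51. Mep1a had 5622 in labelled Erk1/2-KO 1 against 8240 in WT 3, a ratio of 0.682. Enpep, with 6461 and 6638, and Dpp4, with 2399 and 2534, were nearly level (ratios of 0.973 and 0.947). Tmprss15 had 2 and 0 counts there and gives no ratio. In all, on the authors' scaling, 3 members (Anpep, Mep1b and Xpnpep2) were higher in labelled Erk1/2-KO in both sets of libraries, without overlap. Tmprss15 joined them only by its 2 counts against 0. The share of all genes tested was 26.5%. Ace and Mep1a were lower in both, as were 24.5% of all genes. With the score as a covariate over all 6 libraries, 3 members were called higher, among 17.0% of all genes, and 1 lower, among 15.0%. They were Xpnpep2 (1.05 ± 0.16, limma adjusted p = 0.00520), Mep1b (0.87 ± 0.18, adjusted p = 0.0124) and Tmprss15 (2.19 ± 0.67, adjusted p = 0.0442), and Mep1a (-1.56 ± 0.27, adjusted p = 0.00779). Enpep and Dpp4 were not called in that fit (1.24 ± 0.53 and 0.35 ± 0.22). The part of sex in these values was not tested.

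**Figure D4:**
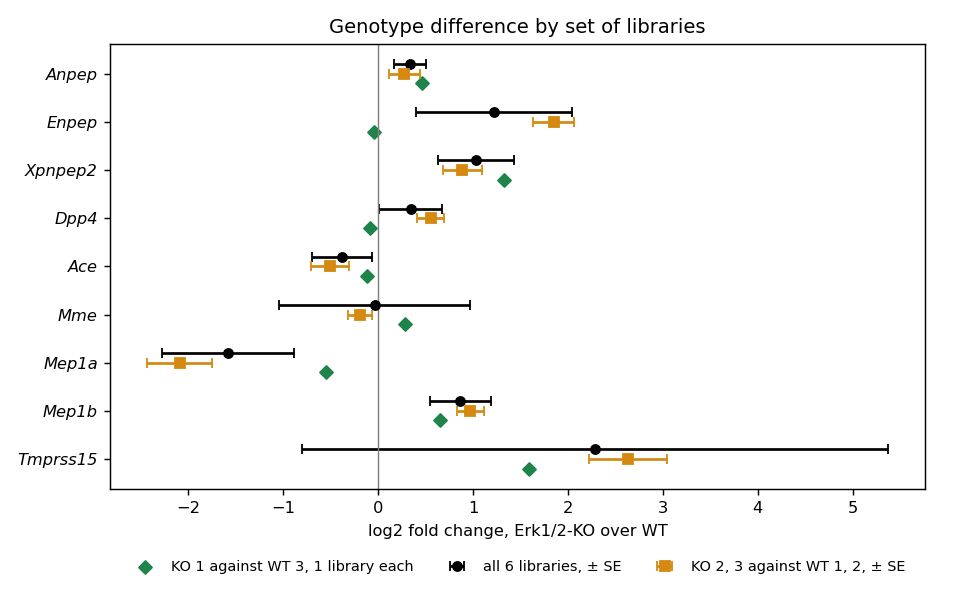
Log2 fold change, labelled Erk1/2-KO over WT, for each peptidase from all 6 libraries (black circles, ± SE), from labelled Erk1/2-KO 2 and 3 against WT 1 and 2 (orange squares, ± SE) and from labelled Erk1/2-KO 1 against WT 3 (green diamonds, 1 library each). Mep1a is below 0 and Mep1b, Xpnpep2 and Anpep are above 0 in all 3, while Enpep is at 1.85 in the 4 libraries and -0.04 in the pair; the diamond of Tmprss15 stands for counts of 2 and 0.

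The meprin subunits moved apart. Per kb of exon, the ratio of Mep1a to Mep1b was 0.496, 0.208 and 0.107 in labelled Erk1/2-KO 1 to 3, and 1.01, 1.53 and 1.14 in WT 1 to 3. Alpha transcripts were thus below beta transcripts in all 3 libraries labelled knockout and at or above them in all 3 WT libraries. This ratio was singled out after the values were seen, and no test is given for it. It does not depend on the scaling of libraries, and it separated the labels in the libraries of high and of low segment score alike. The ratio of Mep1a to another gene was lower in every labelled Erk1/2-KO library than in every WT library for 26.7% of all other genes tested, and that of Mep1b was higher for 38.1%. Mep1b lies on chromosome 18, from 21061923 to 21100199 on the plus strand, and Mep1a on chromosome 17, from 43474324 to 43502812 on the minus strand (GRCm38).

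**Figure D5:**
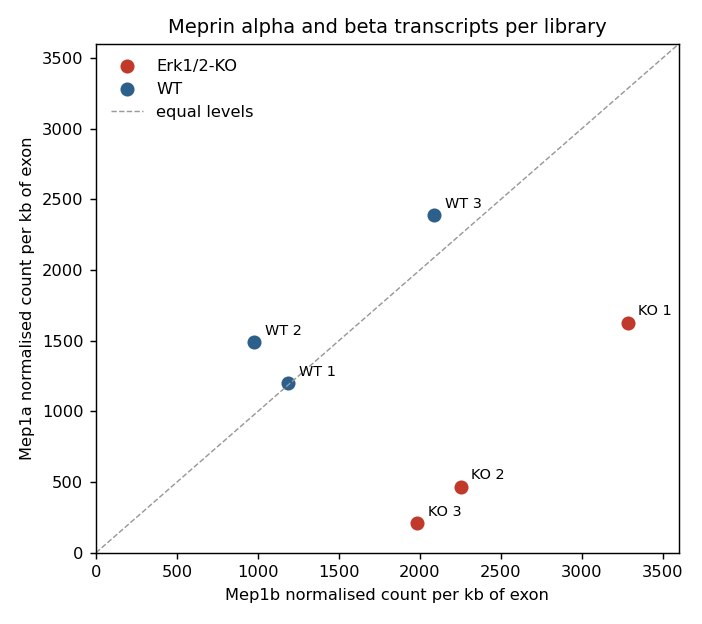
Mep1a against Mep1b, both as normalised counts per kb of exon, in the 3 labelled Erk1/2-KO libraries (red) and the 3 WT libraries (blue); the dashed line marks equal levels. All labelled Erk1/2-KO points lie below the line, with ratios of at most 0.496, and the WT points lie on or above it, from 1.01 to 1.53.

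Several members are also made outside the epithelium, and markers of those cells were compared beside them. The same fit of all 6 libraries called 4.85% of all genes tested higher and 3.94% lower. In bulk tissue, fewer cells of a type and less RNA per cell cannot be told apart. Of 6 epithelial markers the keratin genes Krt8 and Krt19 were called higher, and Cdh1 and Krt18 overlapped between the labels. The 6 summed to between 127428 and 139020 in labelled Erk1/2-KO libraries and to between 63984 and 83460 in WT. Enterocytes, the cells that carry the peptidases, had none of 6 markers called by limma, with sums of 980737 to 1882189 in labelled Erk1/2-KO and 1398147 to 1668757 in WT libraries. Among them Apoa4 and Apob were at -0.37 ± 0.41 and -0.71 ± 0.34 and Vil1, encoding villin, at 0.44 ± 0.15 (log2). Apoa4 alone made up most of the enterocyte sum in every library. Endothelium, another source of Ace, had 3 of 6 markers called lower (Pecam1, Cdh5 and Kdr), and sums of 2789 to 3183 in labelled Erk1/2-KO and 4508 to 5491 in WT libraries. Pericytes, which carry Enpep, had 1 of 5 called lower (Cspg4). Their sums were 3310 to 4053 in labelled Erk1/2-KO and 4170 to 4936 in WT. The pericyte marker Kcnj8 went the other way, higher in every labelled Erk1/2-KO library but not called (log2 0.52 ± 0.16). B lineage cells, whose precursors carry Mme, had 3 of 4 tested markers called lower, with sums of 56 to 119 in labelled Erk1/2-KO and 268 to 385 in WT; Pax5 was at 0 in all labelled Erk1/2-KO libraries. T cells, which carry Dpp4, had none of 5 called and sums of 189 to 232 in labelled Erk1/2-KO and 230 to 244 in WT. Macrophages and monocytes, which carry Anpep, had 1 of 5 called lower (Adgre1). Their sums were 2306 to 6573 in labelled Erk1/2-KO and 3394 to 5725 in WT. Lyz2 of the same list was higher in every labelled Erk1/2-KO library but not called (log2 0.40 ± 0.21). Csf1r, at 4805 in labelled Erk1/2-KO 1 and 4436 in WT 3, made up most of the sum in those libraries. The fibroblast, smooth muscle and acinar lists had no call, and of neutrophil markers S100a8 and S100a9 were called higher of 3 tested. The part of these cells in the peptidase levels was not tested.

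Other steps of protein digestion were read from lists of textbook genes, against the same 4.85% of all genes called higher and 3.94% called lower. Of 9 further surface peptidases, Folh1 was at 0 throughout, 7 were tested, 1 rose and 1 fell, with a median log2 fold change of -0.11. Dpep1, the membrane dipeptidase, had 1935, 1737 and 2542 normalised counts in labelled Erk1/2-KO 1 to 3, and 557, 261 and 252 in WT 1 to 3 (log2 fold change 2.62 ± 0.33, limma adjusted p = 0.0126). Cpm, a membrane carboxypeptidase, had 202, 181 and 91 in labelled Erk1/2-KO 1 to 3, and 534, 639 and 648 in WT 1 to 3 (-2.01 ± 0.30, limma adjusted p = 0.0194). Both were named because this fit called them, so their separation of the labels in all 6 libraries adds no further support. The share of all genes tested with such a separation was 19.8% upwards and 17.8% downwards.

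Among 13 cytosolic peptidases, which split the peptides that enter the cell, 2 rose and none fell, and 11 had positive fold changes (median 0.54). Prep, prolyl oligopeptidase, rose (log2 difference 0.70 ± 0.13, limma adjusted p = 0.0277), as did Nln, neurolysin (0.70 ± 0.13, adjusted p = 0.0296). The most abundant, Cndp2 and Xpnpep1, were not called, at 0.54 ± 0.85 and 0.56 ± 0.35. None of 11 lysosomal peptidases was called and 2 had positive fold changes (median -0.48). Ctsl, encoding cathepsin L, had 25258, 2792 and 2081 in labelled Erk1/2-KO 1 to 3, and 8205, 15841 and 47506 in WT 1 to 3, the low-score library being the highest of each label, as it was for Lgmn, encoding legumain, at 33686 and 53511. Ctsb, encoding cathepsin B, was at -0.39 ± 0.30. Without labelled Erk1/2-KO 1 and WT 3, 6 cytosolic peptidases were called higher and none lower. Of the lysosomal peptidases, 1 was called higher and 5 lower. In that fit 14.3% of all genes tested were called higher and 12.1% lower. The label could not be told apart from sex there.

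Few uptake genes were called in the fit of all libraries, which does not show that the others were unchanged. Of 12 transporters of peptides and amino acids tested, 1 fell and none rose (median log2 fold change -0.02). Slc7a8, a basolateral carrier of neutral amino acids, had means of 1717 ± 286 in labelled Erk1/2-KO and 2994 ± 166 in WT libraries (-0.82 ± 0.16, limma adjusted p = 0.0343). Slc15a1, the peptide transporter PEPT1, had 1059, 2094 and 2247 in labelled Erk1/2-KO 1 to 3, and 1824, 1661 and 1363 in WT 1 to 3 (0.09 ± 0.30, adjusted p = 0.858). The abundant Slc3a2 and Slc43a2 were not called, at -0.08 ± 0.24 and 0.28 ± 0.16.

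On the rest of the brush border, 2 of 7 sugar and lipid hydrolases and phosphatase genes fell, Asah2, a ceramidase, at -1.40 ± 0.28, and Lct, lactase, at -1.22 ± 0.28 (limma adjusted p of 0.0348 and 0.0446). The median of the 7 was 0.59, and Alpi, the intestinal alkaline phosphatase, was not called at 0.59 ± 0.27. Of 12 genes of microvillus structure 1 rose, Myo1a, the myosin that ties the actin core to the membrane (1.24 ± 0.20, adjusted p = 0.0210), and the median was 0.11. The microvillar cadherin genes Cdhr2 and Cdhr5 were not called, at -0.23 ± 0.16 and -0.01 ± 0.32. Of 10 enterocyte transcription factors 1 fell, which was Prdm1, the gene of the repressor Blimp-1 (-1.02 ± 0.21, adjusted p = 0.0372), and the median was 0.01. Hnf4a, the most abundant of that list, was not called, at 0.34 ± 0.19.

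The genes most like each member in pattern were found by Pearson correlation of log2 levels over the 6 libraries, among 10377 genes with a mean of at least 100. With 6 points, of which the 2 low-score libraries set much of the spread, these values describe likeness and carry no p. For Tmprss15 they were Reg1 (r = 0.995), a secreted lectin, Akp3 (r = 0.995), an intestinal alkaline phosphatase, and Car2 (r = 0.995), a carbonic anhydrase. Akp3 had 21, 42748 and 31420 in labelled Erk1/2-KO 1 to 3, and 14863, 3293 and 16 in WT 1 to 3. For Mep1a they were Cryz (r = 0.998), Gpx3 (r = 0.997), a glutathione peroxidase, and Spp2 (r = 0.996). Gpx3 had 51865, 4645 and 1521 in labelled Erk1/2-KO 1 to 3, and 25504, 39321 and 110592 in WT 1 to 3. For Enpep they were Arhgap1, Card14 and Car13 (r of 0.984, 0.978 and 0.977). Those of Mme were Rtn4rl1, Sepsecs and Otop3 (r of 0.990, 0.989 and 0.987). The closest gene to Ace was Map3k10 (r = 0.993), to Mep1b Itga3 (r = 0.995), to Dpp4 Clstn1 (r = 0.993), to Xpnpep2 Ydjc (r = 0.994) and to Anpep Borcs5 (r = 0.992).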

How the data were processed

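The deposited value of a gene is a score in whole numbers, treated as a normalised count: judged from the values, the authors scaled each library and then rounded. Tools named in the submitters' processing notes are TopHat2 2.1.0, HTSeq 0.6.0 and DESeq2 (no version), with build mm10. For the annotation, the strand setting and the read depth, the sources used here give nothing, so counting intervals are left out. Of the symbols, 27 had become dates and 5079 were at 0 in all libraries.

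Genotypes, taken from the sample titles, were compared with limma 3.58.1 in R 4.3.3 after adding a pseudocount of 1 and taking log2, with the variance trend. A gene entered with a value of 10 or more in 3 or more libraries. The two-sided p-values were adjusted by Benjamini-Hochberg over every gene tested, with a threshold of 0.05 and 4 residual and 2.99 prior degrees of freedom. Folds on this scale understate the change of low genes. The fit of all 6 libraries was tested on simulated data in which genes varied independently, without a segment difference between libraries. The fits with the score as covariate or with libraries left out were not tested in this way. Exon lengths and positions came from GENCODE vM21 (GRCm38, the assembly of mm10), as unions of exons.

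The members, lists and alternatives were chosen with earlier results of these data known. The rule for named genes took all members, up to 3 called genes and the 2 most abundant of each list, and the 3 genes most like each member in pattern, named here in part. Slc15a1, Ctsl and genes named to describe libraries or cell types were chosen outside it, after their values were seen. Alternatives changed scaling, filter, pseudocount, test, replicate block, segment score and libraries. Some genes that this rule or the check of the labels would name are not reported here.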

Additional observations from a re-analysis of the deposited data

How the results depend on the processing

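The number of peptidases called with all 6 libraries, 0 higher and 0 lower, was the same under the other scalings, filters, pseudocounts and limma settings tried. With the segment score as covariate it was 3 higher and 1 lower, and 5 higher and 1 lower with both low-score libraries left out. Leaving out 1 library gave 0 higher in every case and 0 to 1 lower. The genes called in all were 1291, and 4691 and 3762 in those 2 fits, 64 with a replicate block, and 28 to 2998 with 1 library left out. The cause was not tested. Whether the replicate numbers pair the libraries is not stated. Deviations of same-numbered libraries from the mean of their label correlated at -0.37, 0.30 and -0.16. Those of the low-score libraries, labelled Erk1/2-KO 1 and WT 3, correlated at 0.41. With such a shared difference between libraries these values cannot decide on pairing. With the replicate block no peptidase was called. The log2 fold change of Mme ran from -1.04 to 0.82 and that of Tmprss15 from -0.40 to 5.32 with 1 library left out, turning positive for Mme without labelled Erk1/2-KO 1, WT 1 or WT 2, and negative for Tmprss15 without WT 3. No other member changed sign under any alternative. Scaling to library totals put the median over all genes at -0.19 (log2). With the longest transcript as length, Xpnpep2 had 67.9 per kb in WT. With 3 libraries a label, intervals for Enpep, Mme and Tmprss15 spanned several fold.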

Other observations

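Ratios between members within a library, which do not depend on scaling between libraries, were compared for all 36 pairs of the 9 genes, with no test. In 8 pairs every labelled Erk1/2-KO library lay on 1 side of every WT library, and 4 of these 8 held Mep1a, which is in 8 of the 36 pairs. Set against all other genes tested, the ratio of Mep1a separated the labels downwards for 26.7% and that of Mep1b upwards for 38.1%, so such pairs are common. The ratio of Mep1a to Xpnpep2 counts was 6.85, 3.71 and 2.49 in labelled Erk1/2-KO 1 to 3, and 22.9, 25.1 and 25.2 in WT 1 to 3. The ratio of Ace to Xpnpep2 counts was 35.2, 44.4 and 44.8 in labelled Erk1/2-KO 1 to 3, and 124, 112 and 96.1 in WT 1 to 3. The ratio of Ace to Mep1b counts was 3.35, 3.27 and 2.52 in labelled Erk1/2-KO 1 to 3, and 7.22, 8.92 and 5.73 in WT 1 to 3. That of Dpp4 to Mep1b counts was 0.278, 0.312 and 0.321 in labelled Erk1/2-KO 1 to 3, and 0.431, 0.415 and 0.462 in WT 1 to 3, although neither gene alone separated the labels. The remaining pairs apart were Dpp4 to Ace, Dpp4 to Mep1a and Enpep to Mep1a, all higher in labelled Erk1/2-KO libraries.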
